A study of Mus musculus with 14 samples.

Results

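CTCF peaks were compared between wild-type (WT) and Ets1-SE-KO (KO) mouse Th1 cells in 4 CUT&RUN libraries, 2 per genotype, out of the 14 libraries of the series. The members were taken by antibody and genotype label, and only peaks on chromosomes 1 to 19 and X were kept. The 4 lists held 144324 peaks, of 336458 in all 14 libraries. In CUT&RUN an antibody tethers a nuclease that releases the DNA around its target, and the other libraries were made with antibodies to acetylated lysine 27 of histone H3 (H3K27ac), to ETS1 and with IgG. WT cells came from C57BL/6J mice and KO cells from the strain labelled C57BL/6J-Ets1-SE-KO. All cells were naive CD4+ T cells taken from spleen and polarized toward Th1 over 6 days, with IL-12 at 10 ng/mL, IL-2 at 1 ng/mL, anti-CD3 and anti-CD28. The sources used here do not give age, sex, number of animals or the coordinates of the deletion. By their titles, the KO libraries are 2 biological replicates, while both WT libraries belong to 1 biological replicate as its technical repeats, so an SD over WT is a technical spread by label and a p-value measures only the spread between these libraries.

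CTCF is a zinc-finger protein that binds a long DNA motif and halts cohesin as it extrudes chromatin loops, so that its sites mark loop anchors and domain borders. It also occupies many promoters, where it can lie beside active, acetylated chromatin. ETS1 is a transcription factor of lymphocytes that acts in T cell development and in Th1 differentiation, and the KO strain is named for an element of its gene.

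The motif was looked for only in sequence around gene starts, as distal sequence was not read. The following stretches lie upstream of annotated starts of protein-coding genes and were read from a RefSeq promoter table of build GRCm38.p6. All were chosen among stretches that hold a core of the CTCF motif, so its presence in them is not a result. They show 3 regions called in all 4 libraries, with the best rank in their weakest list among such stretches. The others are 2 regions called in both KO and neither WT library. No WT-only region met the same criteria. Capitals mark the match to a core of the CTCF motif, which reads CC, any 3 bases, AGG, any base, GGC on either strand, and each stretch is given along the strand of its gene.
Tor2a (chr2:32757075-32757174, + strand, shared): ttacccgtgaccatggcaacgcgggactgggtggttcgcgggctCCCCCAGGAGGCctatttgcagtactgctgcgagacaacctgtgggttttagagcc
Def8 (chr8:123443182-123443258, + strand, shared): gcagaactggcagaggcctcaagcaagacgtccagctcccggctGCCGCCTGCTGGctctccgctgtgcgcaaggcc
Rsad1 (chr11:94549244-94549343, - strand, shared): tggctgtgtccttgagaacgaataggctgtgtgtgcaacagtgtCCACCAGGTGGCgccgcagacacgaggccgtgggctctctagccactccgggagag
Shf (chr2:122368963-122369062, - strand, KO-only): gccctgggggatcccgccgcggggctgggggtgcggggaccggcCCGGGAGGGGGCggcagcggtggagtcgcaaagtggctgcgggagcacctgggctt
Reps2 (chrX:162643659-162643716, - strand, KO-only): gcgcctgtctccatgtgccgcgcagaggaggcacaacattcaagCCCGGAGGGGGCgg

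In Def8 the letters run on the strand opposite to the gene. The region over the Tor2a stretch was covered over 1021 and 1014 bp in the WT libraries and 1827 and 1241 bp in the KO libraries, longer in both KO libraries. The Def8 region had 1113 and 1109 bp in KO against 1041 and 1077 bp in WT, and the Rsad1 region had 1170 and 972 bp in WT and 999 and 1101 bp in KO, so that the genotypes overlapped there. The KO-only regions were short, with 356 and 355 bp at Shf and 260 and 229 bp at Reps2 in the KO libraries. In the list where they ranked lower, they stood at 53.1% and 58.2% of the way down. The shared regions at Tor2a, Def8 and Rsad1 stood within the top 0.193%, 0.215% and 0.27% of their weakest list. A match of letters is a description and not evidence of a bound site.

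Before the genotypes were compared, the lists were checked against their labels. H3K27ac peaks lay within 2 kb of a gene end for 12 of 12 T cell markers in all 4 H3K27ac libraries, among them Cd3e, Cd4 and Lck. The same held for 4 of 7 Th1 markers (Tbx21, Il12rb2, Runx3 and Il18r1), while Stat4 and Cxcr3 had no such peak in any of these libraries and Ifng had it in 1. For other lineages it held for 2 of 8 B cell, 2 of 8 myeloid, 1 of 8 CD8 T and NK cell and 1 of 6 erythroid markers, and Ms4a1, Pax5, Lyz2, Itgam, Ncr1 and Gata1 had none.

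The deletion was looked for at the end of Ets1. The stretch across that gene end without a KO peak of any of the 3 antibodies was chr9:32746522-32940318, of 193797 bp. H3K27ac peaks covered 26420 bp of it in WT replicate 1 and 25692 bp in WT replicate 2, and CTCF peaks covered 897 and 260 bp. The stretch was chosen for the absence of KO peaks, so these values are a description, and peak lists cannot tell deleted DNA from DNA without a call.

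Some libraries went against the pairing that the titles state. At Firre, an X-linked locus with a long array of CTCF sites on the inactive X chromosome, CTCF peaks covered 0.349 kb in WT replicate 1 and 8.67 kb in WT replicate 2, and 0.357 kb in KO replicate 1 and 10.5 kb in KO replicate 2. At 4933407K13Rik, the Dxz4 locus, the values were 0 and 4.95 kb in the WT libraries, against 0.412 and 5.62 kb in the KO libraries. Replicate 2 of each genotype was thus high at both loci and replicate 1 low, although the titles name the WT libraries technical replicates. Regions called only in the replicate 2 libraries made up 5.63% of the 942 merged regions on chromosome X and 0.684% of the 46628 on autosomes. The reason was not tested. The log2 ratio of covered length was 0.39 with chromosome X and 0.38 without, and counts of regions and genes without it stand beside the main counts below.

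CTCF peaks were more numerous and covered more sequence in KO cells. WT replicates held 33133 and 31364 peaks and KO replicates 40487 and 39340, and the genotypes did not overlap. The peaks covered 18.4 and 17.4 Mb in WT, against 24.4 and 22.3 Mb in KO, or 17.9 Mb ± 0.688 against 23.4 Mb ± 1.53 (SD, n = 2 each), a ratio of 1.31. The exact two-sided permutation test gave p = 0.333, the smallest value that 2 libraries against 2 can reach, and it gave the same p for every measure below in which the genotypes did not overlap. Sequencing depth cannot be read from the lists, and a longer list cannot be told apart from a deeper or cleaner library. The authors' per-peak −log10 q had a median of 3.24 and 3.1 in WT and 3.86 and 3.8 in KO, while the lowest value kept was between 0.605 and 0.62 in all 4 lists.

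Further sets of peaks were therefore compared. In the equal-number set each library kept its 31364 peaks with the highest −log10 q, which is the whole list of WT replicate 2. In the equal-length set each kept its best peaks up to the covered length of the smallest library, 17.4 Mb, which left 30306 and 31364 peaks to the WT libraries and 23805 and 26711 to the KO libraries. At equal number the peaks covered 17.8 and 17.4 Mb in WT, against 21.1 and 19.4 Mb in KO, a ratio of 1.15. Median peak width over whole lists was 452 and 435 bp in KO against 432 and 431 bp in WT. At equal number it was 441 and 431 bp in WT, where KO had 518 and 478 bp, and the mean of the medians was 62 bp wider in KO. That cut drops weak peaks mainly from the KO lists, and weak peaks were narrow. In the KO lists the median was 725 and 683.5 bp for the strongest 10% of peaks and 257.5 and 253 bp for the weakest 10%. Matching by rank thus raises the KO median by itself, and the 62 bp is not a difference free of this cut.

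The ratio of KO to WT length was greatest at the ends of genes. Peaks were placed by their midpoint within 2 kb of either end of a protein-coding gene, in a gene body or between genes. Gene-end peaks covered 6.83 and 6.92 Mb in WT, against 10.3 and 9.29 Mb in KO, a ratio of 1.42, whereas the ratio was 1.27 in gene bodies and 1.19 between genes. At equal number the ratios were 1.30, 1.07 and 1.05, and between genes the genotypes then overlapped. At equal length, where the totals match by construction, the ratio was 1.14 at gene ends, 0.914 in gene bodies and 0.912 between genes, so that both WT libraries then had more cover than both KO libraries away from gene ends. With all peaks the share of peaks at gene ends did not separate the genotypes, at 31.4% and 33.4% in WT and 32.1% and 32.1% in KO (exact permutation p = 1, two-sided, n = 2 each). In the matched sets both KO libraries were higher, at 34.3% and 33.5% against 31.7% and 33.4% at equal number and 35.6% and 34.2% against 31.7% and 33.4% at equal length. The median gene-end peak measured 526 and 531 bp in the WT libraries, against 642 and 604 bp in the KO libraries. Median width in gene bodies was 400 and 386 bp in KO against 401 and 399 bp in WT, and between genes it was 415 and 412 bp in WT, where KO had 409.5 and 400 bp. With all peaks, gene-end peaks were thus wider in both KO libraries, gene-body widths overlapped, and intergenic peaks were slightly wider in both WT libraries. At equal number both KO libraries were wider at each location, with 441 and 422 bp against 410 and 399 bp in gene bodies and 447 and 431 bp against 423 and 412 bp between genes. The matched sets drop weak, narrow peaks mainly from the KO lists. Of the weakest 10% of peaks in these lists 24.5% and 25.5% lay at gene ends, against 36.6% and 37.4% of the strongest 10%. Widths and gene-end shares in the matched sets therefore depend on the cut.

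**Figure D1:**
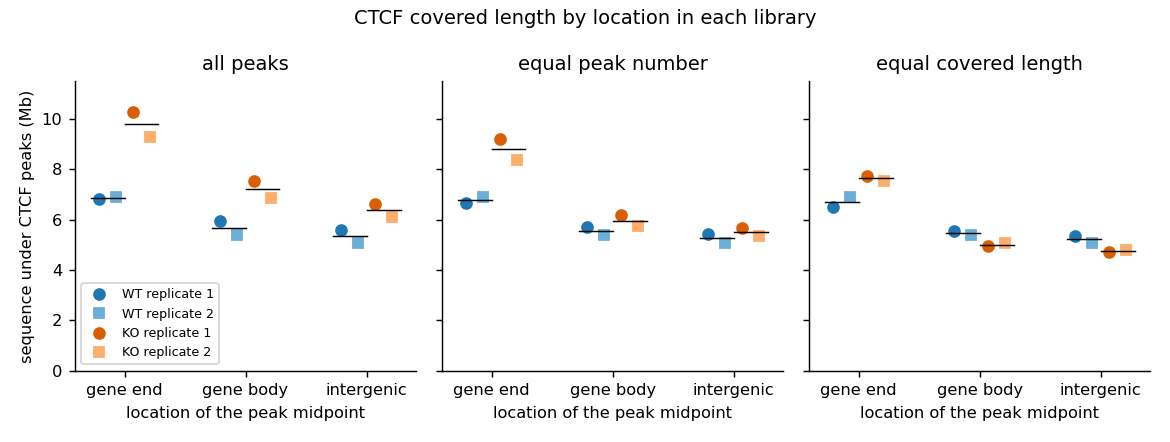
Sequence under CTCF peaks in Mb (vertical axis) by the location of the peak midpoint, in each library, for all peaks, an equal number of peaks and an equal covered length. Points are libraries and black lines the mean of the 2 libraries of a genotype; at gene ends both KO libraries lie above both WT libraries in all 3 panels, with 10.3 and 9.29 Mb against 6.83 and 6.92 Mb for all peaks.

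More regions were called in all 4 libraries than in any other combination. Peaks of the 4 libraries that overlapped by at least 1 bp were merged into 47570 regions. Of these, 25223 (53%) had a peak in all 4 libraries and are called shared. KO-only regions, with a peak in both KO and no WT library, numbered 4095 (8.61% of all regions). WT-only regions numbered 276 (0.58%). Without chromosome X the counts were 4013 and 273.

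The order of KO-only and WT-only regions depended on how many peaks were kept, and the libraries of a genotype were not equally alike. Of the sequence covered in either of 2 libraries, the WT pair shared 58.8%, the KO pair 68.0% and the pairs across genotypes 56.2 to 58.4%, and at equal number 59.5%, 69.0% and 59.1 to 60.9%. The value for the WT pair at equal number thus lay within the range of the pairs across genotypes. At equal number, of 40370 regions, 23108 (57.2%) were shared, 1466 (3.63%) KO-only and 936 (2.32%) WT-only. At equal length, of 37421 regions, 19923 (53.2%) were shared, 497 (1.33%) KO-only and 2504 (6.69%) WT-only. KO-only regions outnumbered WT-only regions in the first and second sets and not in the third. Leaving out any of the 4 libraries, which loosens the definition, gave 6537 to 7762 KO-only and 581 to 2329 WT-only regions from all peaks.

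**Figure D2:**
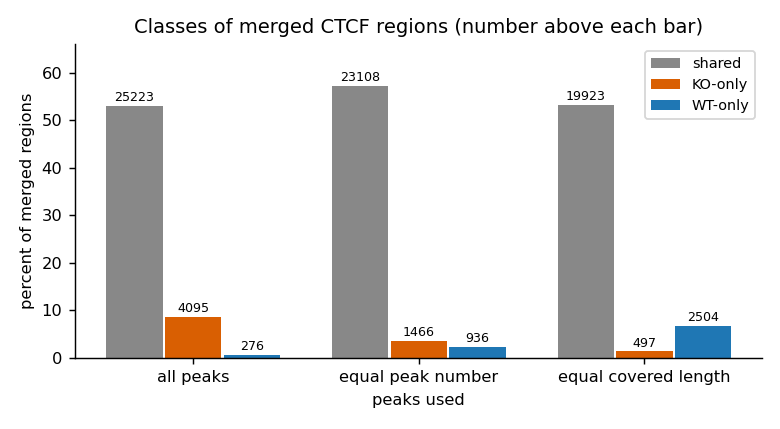
Percent of merged CTCF regions (vertical axis) that were shared, KO-only or WT-only, with the number of regions above each bar, for the 3 sets of peaks. The shared class is the most frequent in each set, and KO-only regions go from 4095 with all peaks to 497 at equal covered length while WT-only regions go from 276 to 2504.

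Regions private to a genotype were weak and narrow. In the list where it ranked lower, a KO-only region stood below the middle in 95.9% of cases and in the top 10% in 0 of 4095, and the corresponding values for WT-only regions were 95.3% and 0 of 276. For shared regions, ranked in the weakest of 4 lists, they were 51.0% and 1894 of 25223. Their median merged width was 351 bp for KO-only and 334.5 bp for WT-only, against 734 bp for shared regions. The best ranked KO-only region was chr13:63567846-63568063 in the body of Ptch1, the Hedgehog receptor gene. It measured 214 and 203 bp in the KO lists, stood at 10.4% in the weaker of them and overlapped H3K27ac peaks in all 4 H3K27ac libraries. The next lay in Ppp1r42 and in Fbxw7, a ubiquitin ligase subunit gene, at 15.2% and 16.4%. The best ranked WT-only regions lay in Scn8a, a sodium channel gene, at 24.5%, and 1791 bp from the end of Cyct, at 24.7%. None of the 6 best WT-only regions overlapped an H3K27ac peak in any H3K27ac library. Of the 6 best KO-only regions, those in Ppp1r42, Fbxw7 and Nhsl1 overlapped none either. Those in H6pd and Ptk2b overlapped a peak in some H3K27ac libraries, and only the one in Ptch1 in all 4.

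Agreement of a peak with the other libraries followed its rank. Of the strongest 10% of peaks, 99.8% in WT replicate 1 and 99.8% in KO replicate 1 overlapped a peak in each of the other 3 libraries. Of the weakest 10%, the shares were 27.6% and 39.4% in the WT replicates and 6.37% and 9.53% in the KO replicates. The motif letters were most frequent under the strongest peaks but did not follow rank throughout. Among promoter windows under the strongest 10% of peaks, the motif core was present in 19.3% and 20.6% in WT and 16.2% and 16.4% in KO, and under the weakest 10% in 3.92% and 4.46% in WT and 5.10% and 5.58% in KO. In the KO lists the share was lowest in group 8 of 10, at 3.84% and 3.25%, and higher again in the weakest 10%. These ranks are within lists of different lengths, so they describe each list and are not compared between genotypes.

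**Figure D3:**
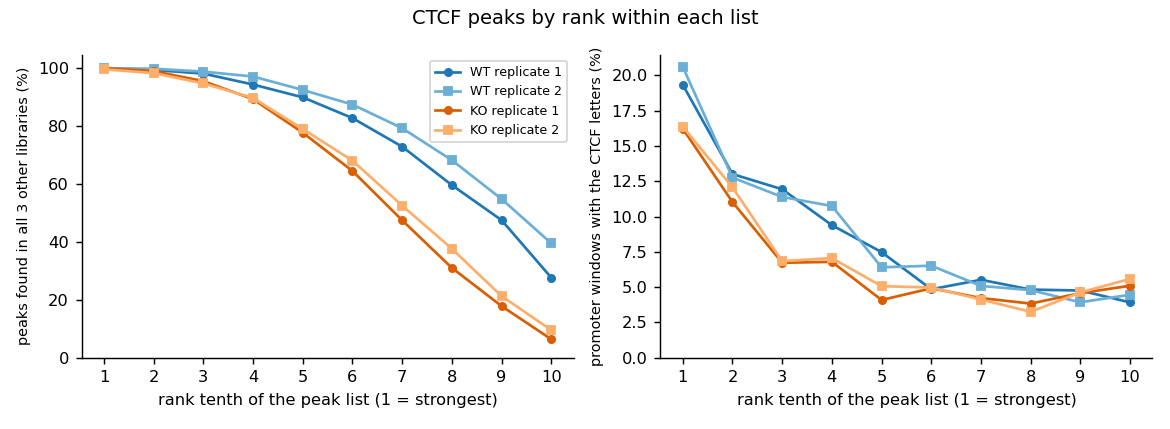
Left, percent of peaks that overlap a peak in all 3 other CTCF libraries, and right, percent of overlapped promoter windows that hold the motif core, both by rank of the peak within its own list in groups of 10% (1 is strongest). Lines are libraries. Both measures start high, at 99.8% and 19.3% in WT replicate 1, and are lower toward the weak end, at 27.6% and 3.92%. In the KO libraries the share of windows with the core is lowest in group 8, at 3.84% and 3.25%, and higher in group 10.

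Across the 32585 windows of the promoter table, each of 300 bp from 250 bp before to 50 bp after a start, 3.45% held the motif core on either strand. It was present in 8.22% of 8383 windows overlapped by a shared region, in 4.02% of 1094 overlapped by a KO-only region but no shared region, and in 1.38% of 20614 without any CTCF call. WT-only regions overlapped 10 windows, of which 1 held the letters. The exact binomial 95% interval was 7.64 to 8.83% for shared and 2.94 to 5.36% for KO-only windows, and covers counting error only. Base composition differed along with these shares, with median GC content of 63.7% in shared, 61% in KO-only and 48.3% in uncalled windows. The same letters read in reverse order, CGGNGGANNNCC, were present in 1.97%, 2.19% and 0.432% of these windows, in the order shared, KO-only and uncalled. The motif was, at equal number, in 8.50% of shared windows against 2.03% for the reversed letters, and in KO-only windows in 3.56% against 2.89% (16 and 13 of 450). At equal length 5 of 160 KO-only windows held the motif and 5 the reversed letters.

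H3K27ac was then read at each class of CTCF region. An H3K27ac peak in all 4 H3K27ac libraries overlapped 31.7% of shared, 32.1% of KO-only (1313 of 4095) and 9.78% of WT-only regions (27 of 276). At gene ends the shares were 65.1%, 53.3% and 7.14%, the last of only 28 WT-only regions. The gene-end share of WT-only regions was 30.6% of 157 at equal number and 45.4% of 586 at equal length. For KO-only regions at gene ends it was 59.7% and 63.4% in these sets. Over all locations the shares of shared, KO-only and WT-only regions were 31.7%, 33.5% and 18.5% at equal number. At equal length they were 31.6%, 32.6% and 24.3%. The value for WT-only regions thus moved with the number of peaks kept, at gene ends as over all locations. Gene ends made up 34.7% of shared, 30.5% of KO-only and 10.1% of WT-only regions. Regions where H3K27ac itself was called in both KO and no WT library made up 4.74% of KO-only CTCF regions (194), 1.51% of shared and 0 of 276 WT-only CTCF regions. In the opposite direction, H3K27ac called in both WT and no KO library lay at 14 WT-only CTCF regions (5.07%) and 12 KO-only ones (0.293%). Peaks of the IgG library of KO cells overlapped 0.833% of shared and 0.269% of KO-only regions.

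Shared CTCF regions were longer in KO cells, above all at acetylated sites. All 3 sets gave this, but each keeps the boundaries of its peaks as called in the full lists. Agreement between the sets is thus largely built in, and none of them adjusts peak length for depth. Shared regions held 45.1% of the extra KO sequence with all peaks, against 26.3% in KO-only regions, and 82.7% at equal number. The covered length of a shared region was longer in both KO than in both WT libraries in 9444 of 25223 cases (37.4%) and shorter in 2029 (8.04%). At equal number these shares were 37.5% and 7.95% of 23108, and at equal length 37.2% and 8.07% of 19923. Without chromosome X, 9305 of 24843 were longer in KO. By location, KO was longer at 53.2% of shared gene-end regions, 30.6% of gene-body regions and 27.4% of intergenic regions.

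Acetylation divided the shared regions further. With an H3K27ac peak in all 4 libraries, 58.0% of 8002 regions were longer in KO and 2.59% longer in WT, and the median log2 ratio of lengths, KO over WT, was 0.33. Without an H3K27ac peak in any library, the shares were 25.4% and 11.3% of 14694 and the median log2 ratio was 0.06. The contrast was present within each location. Gene-end regions were longer in KO in 62.0% of cases with and 31.4% without H3K27ac, gene-body regions in 49.2% and 24.8%, and intergenic regions in 46.4% and 23.9%. Because a longer region has more room for an overlap, H3K27ac was also read at the region's midpoint, which gave 60.1% longer in KO with and 26.6% without the mark.

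The per-library medians showed the same contrast. Acetylated shared regions had a median covered length of 597 and 612 bp in the WT libraries, against 857 and 785 bp in the KO libraries, and unacetylated ones 483 and 457 bp in KO against 458 and 436 bp in WT. The ratio of acetylated to unacetylated median length was 1.30 and 1.40 in the WT libraries and 1.77 and 1.72 in the KO libraries (exact permutation p = 0.333, two-sided, n = 2 each). At equal number it was 1.32 and 1.42 against 1.75 and 1.72, and at equal length 1.32 and 1.44 against 1.70 and 1.70. The ratio of gene-end to intergenic median length was 1.26 and 1.32 in WT and 1.58 and 1.57 in KO. These ratios compare regions within a library, and in all 3 sets the WT and KO libraries did not overlap. The 3 sets share their peak boundaries, so they are not separate checks.

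**Figure D4:**
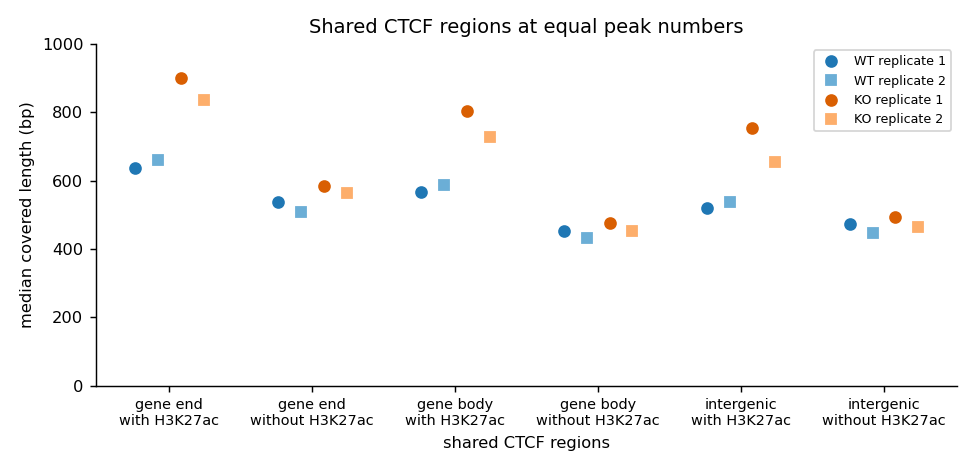
Median covered length in bp (vertical axis) of CTCF regions shared by all 4 libraries, by location and by H3K27ac in all 4 or in none of the H3K27ac libraries, at equal peak number. Points are libraries; acetylated gene-end regions stand at 638 and 661 bp in WT, where KO had 901 and 835 bp, while unacetylated intergenic regions lie close together, at 472 and 448 bp in the WT libraries, against 494 and 464.5 bp in the KO libraries.

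Promoter windows under shared regions longer in KO held the CTCF letters in 7.24% of 5123 cases, those under regions longer in WT in 8.60% of 186, and the rest in 9.82% of 3074. Their median GC contents were 64.3%, 60.3% and 62.3%.

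Covered length was then summed over each protein-coding gene with 10 kb flanks, where 16070 genes had a peak in at least 1 CTCF library. It was higher in both KO than in both WT libraries at 9048 genes (56.3%) and lower at 486 (3.02%). At equal number the counts were 6517 (41.7%) and 1019 (6.52%) of 15640, and at equal length 4326 (28.1%) and 2271 (14.8%) of 15368. Without chromosome X the counts from all peaks were 8832 and 481. In all 3 sets 4184 genes were higher in KO and 437 higher in WT. These shares are the background against which the counts for gene lists below are read. On the log2 scale after adding 1 kb to each mean, the median gene differed by 0.21 with all peaks, 0.13 at equal number and 0.03 at equal length. H3K27ac covered length was higher in both KO libraries at 43.9% of all these genes, at 51.7% of those with more CTCF in KO, at 20.4% of those with less and at 34.8% of those that overlapped. No H3K27ac peak was called at 19.2% of all these genes, at 11% of those with more CTCF in KO and at 42.0% of those with less.

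With all peaks the greatest KO excess lay at Zmiz1 (chr14:25457875-25666743), which encodes a transcriptional coregulator. Its CTCF covered length was 16.9 and 16.4 kb in KO against 9.49 and 10.0 kb in WT. The 4 libraries fell into separate groups, 1.71-fold apart, and the ratio was 1.37 at equal number and 1.18 at equal length. Of the regions in its window 5 were KO-only and 11 shared. Clec16a (chr16:10545309-10744878), a regulator of mitophagy, had 7.72 and 8.14 kb in WT, where KO had 13.9 and 12.4 kb, and the genotypes stayed apart at equal length, with 7.34 and 8.14 kb against 9.16 and 10.4 kb. Acoxl, an acyl-CoA oxidase-like gene, and Mgll, the monoglyceride lipase gene, also kept both KO libraries above both WT libraries in the 3 sets. Acoxl had 3.67 and 4.26 kb in the WT libraries, against 8.57 and 8.14 kb in the KO libraries, and Mgll 8.19 and 7.98 kb in KO against 4.14 and 3.56 kb in WT. Galnt2, which encodes a glycosyltransferase of mucin-type glycans, had 5.33 and 4.85 kb in WT, where KO had 11.9 and 7.12 kb, with the KO libraries far from each other. Galnt2 and Acot7 were ahead of Zmiz1 at equal number, with an excess of 4.05 and 4.03 kb against 3.43 kb.

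Other genes of the same rank depended on the number of peaks kept. Hdac7, a class II histone deacetylase gene of T cells, had 8.18 and 7.76 kb in the WT libraries, against 13.2 and 11.6 kb in the KO libraries with all peaks. At equal length it had 5.76 and 5.19 kb in KO against 8.18 and 7.76 kb in WT, with the order reversed. Nfix, a nuclear factor I gene, had 8.81 and 9.68 kb in WT, where KO had 15.1 and 12.5 kb, and 7.45 and 9.44 kb in KO at equal length. Septin9, a cytoskeletal GTPase gene, and Gse1 were higher in KO with all peaks, at ratios of 1.5 and 1.27, and overlapped at equal number. Acot7, an acyl-CoA thioesterase gene, had 6.97 and 7.24 kb in the WT libraries, against 11.1 and 12.5 kb in the KO libraries. It overlapped at equal length, where KO replicate 1 had 6.86 kb. At equal number Ppp1r35 stood out with 5.74 and 4.70 kb in KO against 1.73 and 1.57 kb in WT. It overlapped at equal length, where KO replicate 2 had 1.53 kb.

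Among genes without overlap the WT excess was smaller in size, and the difference of KO minus WT went no further than -1.53 kb, at Tubb6. Slc37a1 (chr17:31295135-31350709), a sugar phosphate exchanger gene, had 5.99 and 6.13 kb in WT, where KO had 4.36 and 4.72 kb. Napg, whose product acts in vesicle fusion, had 2.30 and 2.33 kb in the WT libraries, against 1.20 and 1.20 kb in the KO libraries, with the same values in all 3 sets. Rsad1, whose promoter motif is shown above, had 1.53 and 1.5 kb in KO against 2.43 and 2.84 kb in WT. Tafa3, Slc24a3, Tff3, Cox19 and Wdtc1 were lower in both KO libraries as well, with KO to WT ratios between 0.625 at Tff3 and 0.865 at Wdtc1. Tubb6, a beta-tubulin gene, had 0.777 and 3.19 kb in WT, where KO had 0.555 and 0.356 kb, and the mean difference of KO minus WT was -1.53 kb with WT replicate 2 and -0.32 kb without it. At equal number the WT excess also took in Mmp23, Snx29, Tspan9, Pik3ap1 and Adam19. Adam19 and Tspan9 had less H3K27ac in both KO libraries too, with 7.70 and 6.44 kb in the WT libraries, against 0.31 and 0.8 kb in the KO libraries at Adam19, and 4.54 and 3.77 kb in WT and 0 in both KO libraries at Tspan9.

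**Figure D5:**
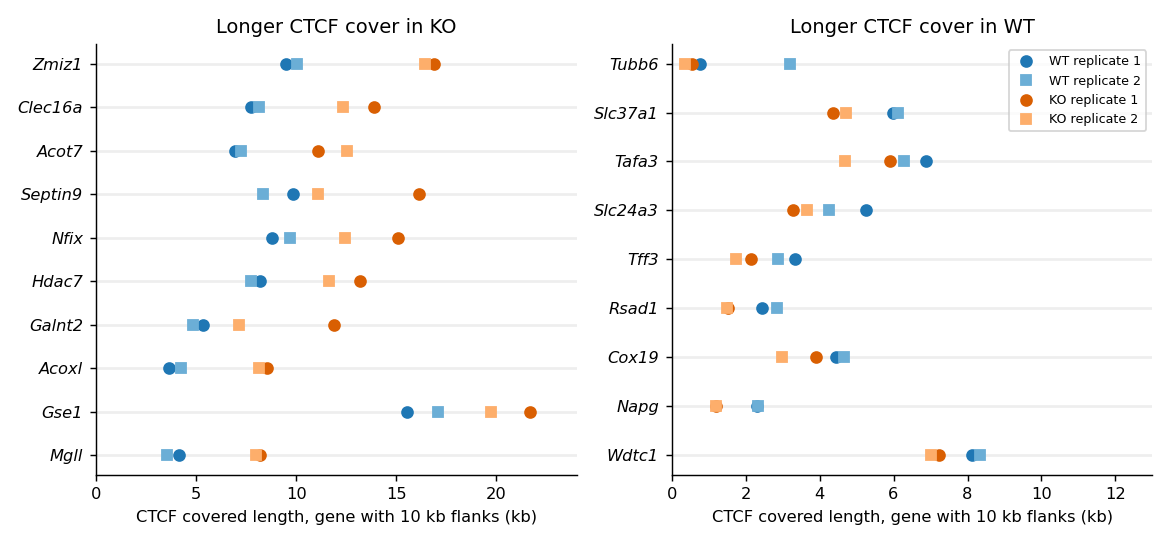
CTCF covered length in kb (horizontal axis) of each gene with 10 kb flanks in each library, for 10 genes with longer CTCF cover in KO (left) and 9 with longer cover in WT (right), all peaks. Points are libraries; at Zmiz1 the KO libraries lie at 16.9 and 16.4 kb and the WT libraries at 9.49 and 10.0 kb, and at Tubb6 WT replicate 2 stands apart from the other 3 libraries.

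Around Ets1 itself, CTCF covered length was higher in KO with all peaks and not with matched peaks. In the window of chromosome 9 from 32 to 34 Mb, peaks covered 13.9 and 13.7 kb in KO against 10.6 and 9.26 kb in WT, with 17 shared, 5 KO-only and 0 WT-only of 39 regions. At equal number the values were 10.0 and 9.26 kb in WT, where KO had 11.7 and 9.16 kb, with no KO-only region among 31. At Ets1 (chr9:32636241-32757820) they were 0.64 and 0.687 kb in the WT libraries, against 1.59 and 0.916 kb in the KO libraries with all peaks, and 0.637 and 0.753 kb in KO against 0.64 and 0.687 kb in WT at equal number. H3K27ac at Ets1 covered 46.6 and 44.1 kb in WT, where KO had 24.2 and 23.4 kb. The Ets1 window reaches into the stretch without KO peaks described above, and these lengths do not separate that part from the rest of the gene. The shared CTCF region inside Ets1, chr9:32695706-32696342, measured 405 and 518 bp in the WT libraries, against 637 and 575 bp in the KO libraries. At the far end of the stretch without KO peaks, the shared region chr9:32940265-32941867 measured 1471 and 1533 bp in KO against 1562 and 1595 bp in WT. It begins inside that stretch, so its first bases lack a KO peak by the choice of the stretch.

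At the neighbouring Fli1 (chr9:32422204-32543432), an ETS family gene, CTCF covered length was 1.19 and 0.622 kb in WT, where KO had 2.81 and 3.68 kb. Its 2 KO-only regions, chr9:32486888-32488054 and chr9:32539593-32541380, stood at 87.9% and 90% in their weaker list and overlapped H3K27ac in all 4 libraries. At equal number Fli1 overlapped, with 0.994 and 0.622 kb in the WT libraries, against 2.31 and 0.724 kb in the KO libraries. Prdm10, a zinc-finger gene of the same neighbourhood, had 2.30 and 2.20 kb in KO against 0.431 and 0.461 kb in WT. It kept the order at equal number, where WT had 0.238 and 0.461 kb and KO the same lengths as before. It overlapped at equal length, where KO replicate 1 had 0.371 kb. Of the 12 genes of the Ets1 neighbourhood with a peak, 8 were higher in KO and 0 lower with all peaks, where 56.3% of all genes were higher. At equal number 4 were higher and 2, Adamts8 and Kirrel3, lower, and at equal length 2 were higher and 3 lower. Kirrel3 had 1.13 and 0.383 kb in WT, where KO had 0.326 and 0.328 kb in that set.

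The genes of the CTCF and cohesin machinery included Ctcf itself, where CTCF peaks covered 2.28 and 2.51 kb in the WT libraries, against 2.41 and 2.45 kb in the KO libraries, with the genotypes overlapping in all 3 sets. Of 15 machinery genes with a peak, 8 were higher in both KO libraries and 0 lower, at equal number 7 were higher and 1 lower of 14, and at equal length 5 and 1 of 14. The shares higher were 53.3%, 50% and 35.7%, against 56.3%, 41.7% and 28.1% of all genes. The cohesin subunit gene Stag1 had 2.12 and 1.87 kb in KO against 1.25 and 1.40 kb in WT, and the cohesin loader gene Nipbl 3.04 and 3.18 kb in WT, where KO had 3.53 and 3.91 kb, the same in every set. Wapl, whose product releases cohesin, had 0.932 and 0.625 kb in the WT libraries, against 1.14 and 1.41 kb in the KO libraries. Pds5b and Cdca5, which regulate cohesin on DNA, were also higher in KO in all 3 sets. Mau2, Esco2 and Smc1a were higher with all peaks and overlapped at equal length, and Mau2 had no peak in either WT library. Smc1a lies on the X chromosome and had 0.728 and 1.16 kb in KO against 0 and 0.686 kb in WT, with replicate 2 above replicate 1 in each genotype.

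Loci known for loops organised by CTCF were taken next. Of the 15 protein-coding members with a peak, 10 were higher in KO and 1 lower with all peaks, 5 and 3 at equal number, and 4 and 3 at equal length. As shares, 66.7%, 33.3% and 26.7% were higher, against 56.3%, 41.7% and 28.1% of all genes. Hoxa10 had 1.33 and 1.5 kb in WT, where KO had 2.85 and 2.62 kb, and Hoxa9 1.07 and 1.59 kb in the WT libraries, against 2.69 and 2.33 kb in the KO libraries. At equal number Hoxa9 had 1.65 and 1.42 kb in KO against 1.07 and 1.59 kb in WT, which overlapped. The beta-globin gene Hbb-bt had 0.46 and 0.597 kb in WT, where KO had 0.446 and 0.47 kb. Shh was lower in KO with all peaks, at 0.596 and 0.45 kb in the WT libraries, against 0.22 and 0.338 kb in the KO libraries. It overlapped at equal length.

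Gene lists of T cells were read against the same background. Of 26 Th1 genes with a peak, 16 were higher in KO and 2 lower (61.5% higher, against 56.3% of all genes). At equal number 3 were higher and 4 lower of 25, that is 12% higher against 41.7% of all genes, and the median log2 ratio was 0.06 against 0.13. At equal length 1 was higher and 7 lower of 24, where 28.1% of all genes were higher and 14.8% lower. Runx3, a Th1 and CD8 lineage factor gene, had 8.57 and 6.44 kb in KO against 5.42 and 6.35 kb in WT. It overlapped at equal length, where KO had 6.97 and 5.99 kb. The cytokine gene Lta had 2.79 and 1.76 kb in WT, where KO had 5.01 and 3.09 kb, and at equal number KO replicate 2 fell within the WT range at 2.37 kb. Eomes, a T-box factor gene, was lower in KO in each set, at 4.16 and 3.97 kb in the WT libraries, against 3.54 and 3.63 kb in the KO libraries. The interleukin receptor gene Il18rap had 0.286 and 0.509 kb in KO against 1.17 and 0.233 kb in WT.

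Of 14 Th2 genes with a peak 11 were higher in KO and 0 lower, and at equal number 7 and 0 of 13, and at equal length 6 and 1 of 12. Thus 78.6%, 53.8% and 50% were higher, against 56.3%, 41.7% and 28.1% of all genes. Stat6, the signal transducer of IL-4, had 6.03 and 5.33 kb in WT, where KO had 7.79 and 7.36 kb in each set. Il4ra, its receptor chain, had 1.17 and 0.845 kb in the WT libraries, against 3.84 and 2.64 kb in the KO libraries with all peaks, and 2.62 and 0.716 kb in KO against 0.809 and 0.845 kb in WT at equal number. Of 12 naive and memory T cell genes 6 were higher and 0 lower, at equal number 4 and 0 of 11, and at equal length 2 and 3 of 11. Against the same shares of all genes, 50%, 36.4% and 18.2% of this list were higher. Bach2, a repressor gene of effector programmes, had 4.01 and 3.92 kb in WT, where KO had 8.79 and 7.09 kb, and at equal number 6.15 and 3.67 kb in KO, which overlapped WT. Lef1 had 5.44 and 4.35 kb in the WT libraries, against 8.92 and 5.85 kb in the KO libraries. Il7r had a CTCF peak in WT replicate 1 alone, of 0.179 kb.

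Of 21 T cell identity genes 13 were higher in KO and 0 lower, and at equal number 5 were higher and 1 lower. At equal length the order turned, with 2 higher and 6 lower and a median log2 ratio of -0.14. As shares, 61.9%, 23.8% and 9.52% were higher in these sets, against 56.3%, 41.7% and 28.1% of all genes. Cd247, the CD3 zeta chain gene, had 8.82 and 5.68 kb in KO against 4.35 and 4.25 kb in WT, and overlapped at equal number, where KO replicate 2 had 4.13 kb. Ikzf1, the Ikaros gene, had 0.337 and 0.645 kb in WT, where KO had 2.28 and 2.60 kb, with 2 KO-only regions. Cd3g and Cd3d overlapped between genotypes. Of 21 activation and inhibition genes 16 were higher and 0 lower, at equal number 11 and 1 of 20, and at equal length 7 and 2 of 20. Against the same shares of all genes, 76.2%, 55% and 35% of this list were higher. Junb, an AP-1 subunit gene, had 5.19 and 4.07 kb in the WT libraries, against 8.18 and 7.75 kb in the KO libraries. At equal number it had 4.78 and 4.07 kb against 8 and 7.57 kb. It overlapped at equal length, where KO had 6.93 and 3.84 kb. Tnfrsf9, the costimulatory receptor 4-1BB gene, had 4.22 and 2.98 kb in KO against 1.37 and 0.319 kb in WT, and at equal number the KO values were 1.97 and 0.435 kb.

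Of 18 housekeeping genes 15 were higher in KO and 0 lower (83.3% higher), and at equal number 14 and 0 (77.8%, against 41.7% of all genes), and at equal length 9 and 1. Tubb5 had 3.08 and 3.13 kb in WT, where KO had 4.92 and 4.78 kb. Gapdh had 0.209 and 0.165 kb in the WT libraries, against 1.65 and 2.47 kb in the KO libraries, but KO replicate 1 had 0.21 kb at equal number. Of 7 B cell genes with a peak 2 were higher in KO, of 6 myeloid genes 2, of 6 CD8 T and NK cell genes 3, of 4 erythroid genes 2 and of 7 non-haematopoietic genes 3, and none was lower in both KO libraries. At equal number these counts were 1 of 7, 2 of 5, 2 of 5, 2 of 4 and 2 of 5, and at equal length 1 of 7, 0 of 5, 1 of 5, 2 of 4 and 2 of 5, with 1 B cell and 2 myeloid genes lower. Over all genes 56.3% were higher with all peaks, 41.7% at equal number and 28.1% at equal length. The B cell factor gene Ebf1 had 4.78 and 4.35 kb in KO against 3.17 and 2.89 kb in WT with all peaks. It overlapped at equal number, where KO replicate 2 had 2.65 kb, and at equal length both KO libraries, at 2.49 and 2.48 kb, were below both WT libraries. The erythroid factor gene Klf1 had 2.32 and 1.81 kb in WT, where KO had 4.02 and 3.16 kb, with the same values in each set. The lists hold few genes, neighbouring genes can share peaks, and no list was tested against the others.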

How the data were processed

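The sources were peak lists from CUT&RUN libraries of mouse Th1 cells, 1 list per library. The submitters' processing notes name BWA and the build GRCm38, and peaks in the deposited lists are named in the manner of MACS2. The sources used here do not give versions, options, controls or duplicate handling. Per the file layout, the deposited lists hold 9 columns. Column 5 is the authors' score, column 7 the authors' fold enrichment as a ratio, and columns 8 and 9 the deposited −log10 p and −log10 q. Column 9 served to rank peaks within a list, to set a minimum of 5 in 1 alternative, and for the medians given. Depth is unknown and was not adjusted for.

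Merging, coverage, placement and exact permutation tests were computed in Python 3.11.15 with numpy 2.4.6, pandas 2.3.3 and scipy 1.17.1, and the code was tested on simulated peaks. Genes, 21631 of them protein-coding, came from RefSeq for GRCm38.p6. The promoter table held 32585 windows and matched 17244 of these genes by symbol. Since the gene table was used without exons, placement distinguished gene ends, bodies and intergenic sequence. Distal sequence was not read.

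Genes were named by a rule: Ets1 and Fli1, Ctcf and machinery genes without overlap between genotypes, the 10 greatest differences in each direction, the 5 greatest at equal number, and up to 2 of each list in each direction. Of the genes it named, 1 is not reported here. Markers and single library values outside it were chosen after values were seen. The members, lists and rule were chosen with earlier results of these data known. Alternatives are in the closing section.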

Additional observations from a re-analysis of the deposited data

Results flagged for a closer look

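Peaks on chromosome Y lay outside the chromosomes compared, and both IgG lists had 0 there. The CTCF lists held 11 in WT replicate 1, 4 in WT replicate 2, 15 in KO replicate 1 and 5 in KO replicate 2. Below 90 Mb on that chromosome the numbers were 6, 0, 2 and 0. Replicate 1 of each genotype thus had the more Y peaks and replicate 2, with the long coverage at Firre, the fewer. The reason was not tested.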

How the results depend on the processing

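Peak lists carry no reads, so depth limits every count here and 2 libraries against 2 cannot pass a threshold. The log2 ratios of covered length (0.17 to 0.45) and of peak number (0.27 to 0.60) kept their sign under every alternative run. So did the difference in median width (3.5 to 103.5 bp). Leaving out a library could not change these signs, because both KO libraries were above both WT libraries in each measure. Dropping the lowest 25% shortens each list by the same share, so it could not change the sign for peak number either. Covered length was not run at equal length, where the totals match by construction. For width, the equal-number and equal-length sets drop more weak, narrow peaks from KO than from WT, which widens the difference by itself. The difference in the share of peaks at gene ends, -0.30 percentage points, did not keep its sign. It was 1.36 at equal number, 1.99 without the lowest 25% of peaks and 0.15 around transcription starts. With a library left out it was -1.30 to 0.71, positive without WT replicate 2. KO-only regions (4095) numbered 1466 at equal number, 497 at equal length and 6537 to 7762 with a library left out. WT-only regions (276) numbered 936, 2504 and 581 to 2329. Genes with more CTCF in KO numbered 4326 at equal length, and genes with less 1019, 2271 and 872 to 2090. Shared regions longer in KO numbered 11997 to 15761 with a library left out, which leaves fewer libraries to exceed, and their acetylated minus unacetylated log2 length (0.27) ranged from 0.20 to 0.31 over all alternatives. H3K27ac in any library gave 51.8% of KO-only regions, and leaving out a CTCF library 23.6 to 34.9%. A looser motif core, with any base in place of the second G of AGG, was in 17.0% of shared and 11.1% of KO-only windows. At equal length 12 of 58 named genes without overlap changed sign, in kb of KO minus WT: Lef1 -1.32, Bach2 -0.594, Tnfrsf9 -0.625, Gapdh -0.082, Cebpa -0.927, Nfix -0.801, Gse1 -0.389, Ets1 -0.0575, Ikzf1 -0.177, Ebf1 -0.385, Septin9 -0.055 and Hdac7 -2.5. The alternatives for regions and genes without X, transcription starts, shared regions, KO-only windows and named genes, and the left-out libraries for H3K27ac and letters, were chosen after seeing the data; causes were not tested. No paired analysis was possible because the WT titles give both libraries the same biological number, so the genotypes share fewer than 2. CTCF replicates of the same number were nevertheless alike at Firre. The H3K27ac lists used to mark CTCF regions were not, as H3K27ac peaks covered 0 kb there in WT replicate 2 and 6.27 kb in KO replicate 2.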

Other observations

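The best ranked shared regions differed among themselves. The leading one, chr17:36231261-36231604, lay 24240 bp from Rpp21, measured 344 bp in each of the 4 CTCF libraries and overlapped peaks of H3K27ac and of ETS1 in all 4 libraries of each antibody. The next, chr1:195241568-195241891, lay 64850 bp from Cr2, measured 305 to 324 bp and overlapped both as well, while the third, chr14:7997227-7997699, overlapped neither in all 4. Shared regions as a whole had a median merged width of 734 bp, and 31.7% overlapped H3K27ac and 20.4% ETS1 in all 4 libraries.

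With all CTCF peaks, ETS1 peaks overlapped 9.47% of KO-only CTCF regions and 0 of 276 WT-only regions in all 4 ETS1 libraries. At equal number the shares were 12.2% of KO-only and 3.85% of WT-only regions, and at equal length 12.9% and 8.51%. The value for WT-only regions thus moved with the number of peaks kept. By library, the ETS1 lists overlapped 28.6% and 37.9% of shared CTCF regions in WT and 41.4% and 24.3% in KO, so the libraries of a genotype differed from each other by more than the genotypes.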
